A study of Mus musculus with 18 samples.

Results

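Lysozymes and the proteins that neutrophils store in granules or cytosol were followed in sorted mouse CD4 T cells through 9 genes: the lysozyme genes Lyz1 and Lyz2, and S100a8, S100a9, Ngp, Mmp9, Stfa3, Camp and Ltf. They are 9 of 18193 genes measured on 18 Affymetrix arrays. The genes were listed by name with earlier results of these arrays in view, in which Lyz1 was already known as one of the largest decreases in R397W cells. For each gene, the probe set (a group of short probes for a transcript) was chosen by its variance over the 18 arrays, the largest among probe sets that the chip annotation gives to that gene alone. The variance decided between probe sets for Lyz1, which has 3, and for Mmp9, which has 2, and the other 7 genes have 1 each. The same values thus chose the members, so differences of these genes that involve R397W cells are given with their error and no p, and the adjusted p of other comparisons places a gene in the fit of all genes and is no independent evidence.

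Foxp3 is the X-linked transcription factor of regulatory T (Treg) cells, and a heterozygous female uses either of its Foxp3 alleles in a given Treg cell. All mice were of strain B6;129, and all carried a wild-type Foxp3 allele tagged with GFP beside an allele tagged with hCD2, a surface reporter. CD4+ cells were sorted from spleen and lymph nodes without culture. FoxP3WT:hCD2/WT:GFP mice gave conventional T cells negative for both reporters (Tconv, 2 arrays), wild-type Treg cells positive for GFP (WT GFP, 2 arrays) and wild-type Treg cells positive for hCD2 (WT hCD2, 2 arrays, numbered 3 and 4). FoxP3A384T:hCD2/WT:GFP mice gave hCD2+ A384T Treg cells (3 arrays) and GFP+ wild-type Treg cells (called WT GFP of A384T mice, 3 arrays). FoxP3I363V:hCD2/WT:GFP and FoxP3R397W:hCD2/WT:GFP mice gave hCD2+ I363V and R397W Treg cells (3 arrays each). Every mutant population therefore came from a mouse that also held wild-type Treg cells, and RNA was amplified in 2 labelling cycles. Per the series' design text the populations were made in duplicate or triplicate, but no label ties an array to an animal of its own. A p therefore measures the spread between these samples, which may be technical.

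Values are on a log2 scale and are centred so that the 2 Tconv arrays of each probe set average 0. A value is thus a difference from Tconv cells, and neither the level of a gene nor its absence can be read from it. Foxp3 lay 6.38 to 7.59 above Tconv cells on all 16 Treg arrays, which goes with their Treg label. Relative to Tconv cells, the T cell receptor component Cd3e lay between -0.59 and 0.63 on these arrays, and Cd4 between -1.11 and 0.15. Groups held 2 or 3 arrays, and this number limits the precision of every value. Each difference below is given ± SE from a limma fit of all 18 arrays, and a gene passed the test when its p, adjusted by Benjamini-Hochberg over the 18193 genes, was under 0.05.

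Lysozymes cut the peptidoglycan of bacterial cell walls. In mice Lyz2 is the lysozyme of macrophages and neutrophils, and Lyz1 is best known from Paneth cells of the gut. Neutrophils build their granules in successive waves during maturation: azurophil granules first, then specific granules that hold lactoferrin (Ltf), the cathelicidin precursor (Camp) and neutrophilic granule protein (Ngp), and last gelatinase granules that hold the matrix protease Mmp9. S100a8 and S100a9 together form calprotectin, a metal-binding complex that fills the neutrophil cytosol, and Stfa3 belongs to the stefin A family of inhibitors of cysteine cathepsins. T cells are not the usual source of most of these transcripts, although activated T cells can make Mmp9.

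The 9 genes did not follow 1 pattern. Lyz1 and Lyz2 were low on all 3 R397W arrays. S100a8, S100a9, Ngp, Camp and Ltf were high on array 2 of A384T cells and on array 2 of the wild-type cells of A384T mice, whatever the Foxp3 allele. Their means were also lower in R397W than in WT hCD2 cells, so the low R397W values are not particular to the lysozymes. Mmp9 and Stfa3 were high on all 3 A384T arrays. These 3 sets were formed after the values had been seen, so no test is attached to them. The plot of all values by group shows the 3 patterns gene by gene.

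**Figure D1:**
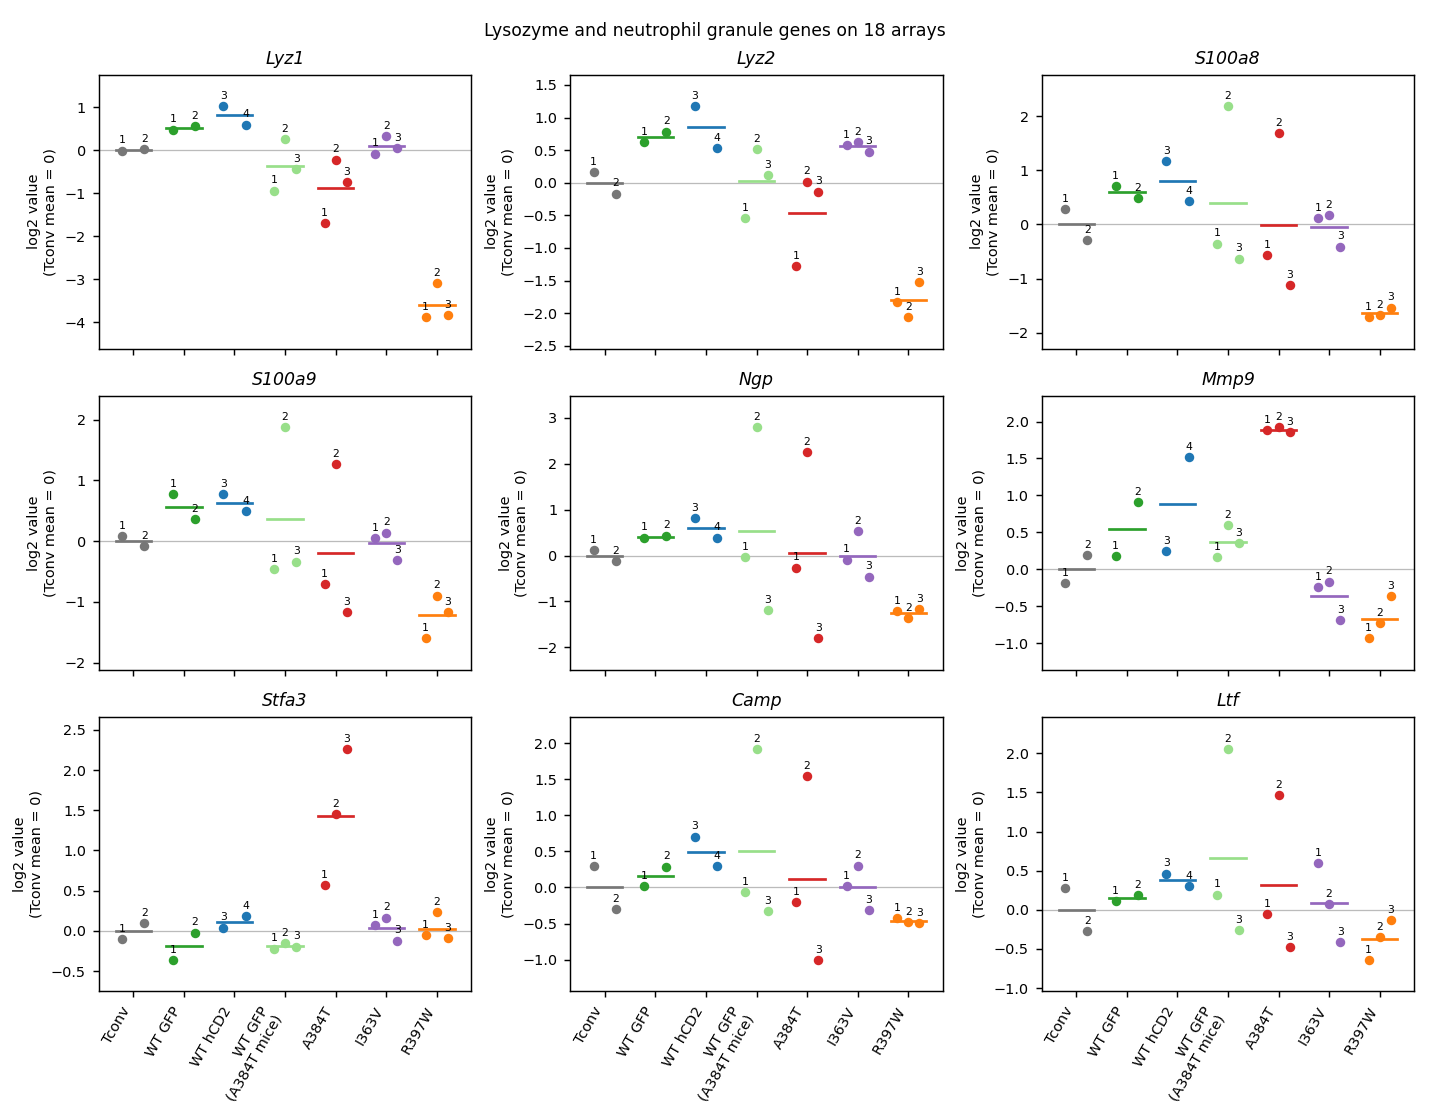
Log2 value (Tconv mean = 0, vertical axis with its own range in each panel) of the 9 genes by group (horizontal axis); points are arrays labelled with their replicate number and bars are group means. R397W arrays lie lowest for Lyz1, Lyz2 and S100a8, the arrays numbered 2 of A384T mice lie highest for S100a8, S100a9, Ngp, Camp and Ltf, and A384T arrays lie highest for Mmp9 and Stfa3.

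The lysozyme genes come first, and the stretches before their starts are much alike. Lyz1 and Lyz2 lie next to each other on chromosome 10 with 0 protein-coding genes between them. In the 120 bases before the start of transcription, 111 are the same in both genes, an identity of 92.5%. The stretches are from RefSeq on GRCm38.p6, chr10:117292869-117292988 for Lyz1 and chr10:117282273-117282392 for Lyz2, both on the minus strand and written 5′ to 3′, and capitals mark the 9 bases that differ.
Lyz1: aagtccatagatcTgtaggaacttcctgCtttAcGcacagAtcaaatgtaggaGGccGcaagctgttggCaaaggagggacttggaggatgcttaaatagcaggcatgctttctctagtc
Lyz2: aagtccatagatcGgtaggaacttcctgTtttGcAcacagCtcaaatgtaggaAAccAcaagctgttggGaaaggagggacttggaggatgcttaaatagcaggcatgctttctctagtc

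Lyz1 read -3.88, -3.09 and -3.84 on the R397W arrays. It read 1.02 and 0.59 on the WT hCD2 arrays, 0.47 and 0.56 on the WT GFP arrays and -0.08, 0.32 and 0.04 on the I363V arrays. It read -1.69, -0.22 and -0.74 on the A384T arrays and -0.94, 0.26 and -0.44 on the wild-type arrays of the same mice. The R397W arrays lay below all others without overlap, and the A384T arrays overlapped with the wild-type arrays of A384T mice. R397W cells differed from WT hCD2 cells by -4.41 ± 0.38, a ratio of 21.3, with a 95% interval of -5.23 to -3.59.

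Lyz2 read -1.83, -2.06 and -1.53 on the R397W arrays, against 1.17 and 0.53 on the WT hCD2 arrays and 0.58, 0.62 and 0.48 on the I363V arrays. On the A384T arrays it read -1.28, 0.02 and -0.14, and on the wild-type arrays of the same mice -0.54, 0.52 and 0.12. The R397W arrays were again the lowest 3 of 18, below A384T array 1. The difference between R397W and WT hCD2 cells was -2.66 ± 0.35. In such sorted bulk samples, fewer cells of a type and less RNA per cell cannot be told apart.

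The order of group means was the same at both ends for the 2 lysozymes. WT hCD2 was highest (0.81 ± 0.30 for Lyz1 and 0.85 ± 0.46 for Lyz2, SD, n = 2), WT GFP and I363V followed, and A384T (-0.88 ± 0.75 and -0.47 ± 0.71, SD, n = 3) and R397W (-3.60 ± 0.45 and -1.80 ± 0.27, SD, n = 3) closed the order. I363V, Tconv, WT GFP of A384T mice and A384T arrays overlapped with their neighbours in this order for Lyz1. For both genes the R397W arrays had no overlap with the group next to them.

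The 3 probe sets of Lyz1 did not read alike. The probe set 1439426_x_at gave -3.74, -3.12 and -3.83 on the R397W arrays and a difference from WT hCD2 cells of -4.17 ± 0.38. The third, 1450822_at, stayed between -0.11 and 0.27 on all 18 arrays and gave a difference of -0.26 ± 0.11. By the naming of these chips, the ending _x_at marks probe sets whose probes can also bind other similar transcripts, and the ending _s_at of the S100a8 probe set 1419394_s_at marks probes shared by several transcripts. By that ending, the signal called Lyz1 may hold transcript of similar genes such as Lyz2, and the share of each was not tested. Transcripts and probes of Lyz1 and Lyz2 were not compared here, only the stretches before their starts. The mean of the 3 Lyz1 probe sets differed by -2.95 between R397W and WT hCD2 cells.

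**Figure D2:**
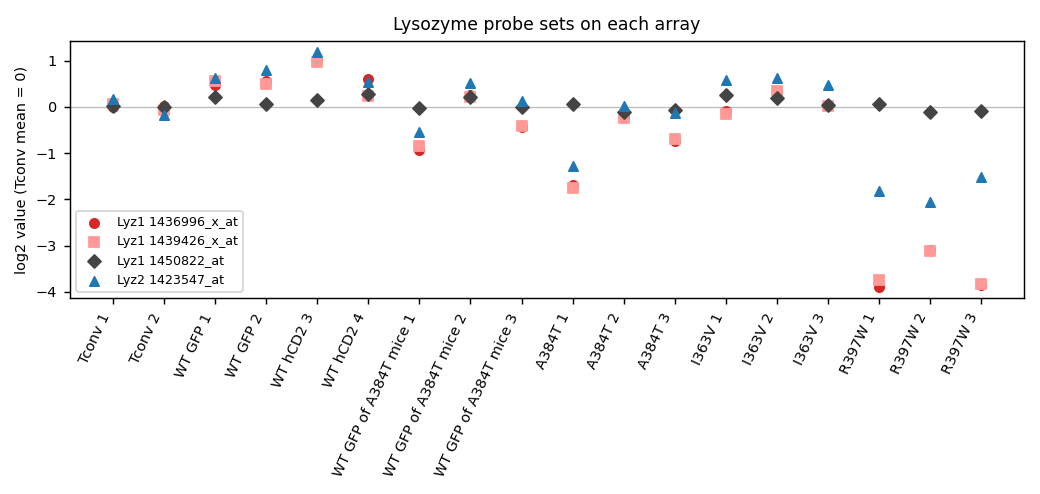
Log2 value (Tconv mean = 0, vertical axis) of the 3 Lyz1 probe sets and the Lyz2 probe set on each of the 18 arrays (horizontal axis). The _x_at probe sets of Lyz1 and the Lyz2 probe set drop on the 3 R397W arrays, and 1450822_at stays between -0.11 and 0.27 on every array.

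Against WT hCD2 cells, 3 of the 9 genes were past the threshold in R397W cells, all lower (Lyz1, Lyz2 and Mmp9), where 1.55% of all genes were lower. This comparison was in view when the genes were listed, so nothing is read from the count. The median difference of the 9 genes was -1.85, against -0.02 over all genes. S100a8 (-2.44 ± 0.76), S100a9 (-1.85 ± 0.66), Ngp (-1.85 ± 1.01), Camp (-0.96 ± 0.64) and Ltf (-0.76 ± 0.59) were also lower, though not past the threshold. Mmp9 read -0.94, -0.73 and -0.37 on the R397W arrays against 0.24 and 1.51 on the WT hCD2 arrays, which did not overlap, and the difference was -1.56 ± 0.31. Without WT hCD2 array 4 the difference of Mmp9 was -0.92 and no longer past the threshold, nor was it past the threshold without R397W array 1 (-1.43).

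R397W cells can also be set beside the other mutants, which share no arrays with WT hCD2. For Lyz1 the difference of R397W cells was -3.70 ± 0.34 from I363V cells and -2.72 ± 0.34 from A384T cells. For Lyz2 it was -2.36 ± 0.31 and -1.34 ± 0.31. Against I363V cells, 2 of the 9 genes were past the threshold (0.022% of all genes were lower), and against A384T cells 4 were, all lower (2.22% of all genes were lower). The R397W arrays were in view when the genes were listed, so nothing is read from either count. In the first of these comparisons 15 genes in all were past the threshold, and 4 of them were lower: Lyz1, Lyz2, Mettl23 (-1.91 ± 0.26) and Fam91a1 (-1.14 ± 0.19), the last 2 named after their values were seen. The count of 15 ran from 1 to 57 with single arrays left out. The Lyz2 value against I363V cells kept its size but lost the threshold without I363V array 2 (-2.33) or R397W array 1 (-2.35). Against A384T cells it lost the threshold without any one of A384T arrays 2 and 3 and R397W arrays 1 and 2, with differences of -1.33 to -1.10, and Stfa3 lost it without A384T array 2 (-1.39).

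Some other myeloid markers and most effector Treg genes were also lower on the R397W arrays. Over the 13 measured genes of a shared myeloid list (such as Tyrobp and Fcer1g, adaptors of activating receptors), the mean was -0.82 to -0.80 on R397W arrays and -0.35 to -0.27 on WT hCD2 arrays. Over 17 monocyte and macrophage genes it was -0.47 to -0.29 against 0.06 to 0.11, and over 10 specific granule genes -0.43 to -0.28 against 0.32 to 0.51. Of these lists, Clec7a, a receptor for fungal glucans (-0.95 ± 0.23), Ccr2, the receptor of monocyte chemokines (-1.91 ± 0.34), F13a1 (-1.14 ± 0.24), Cybb, the catalytic subunit of the phagocyte oxidase (-2.13 ± 0.30), and the peptidoglycan binder Pglyrp1 (-2.25 ± 0.44) were past the threshold. The means of 10 dendritic cell genes (-0.40 to -0.05 against -0.29 to -0.23) and of 7 eosinophil, basophil and mast cell genes (-0.07 to -0.02 against -0.10 to -0.03) overlapped between these groups. Those of the B cell, T cell identity, and erythroid and platelet lists overlapped too. Lower means were not limited to myeloid lists. For 5 plasma cell genes the mean was -0.83 to -0.50 against -0.43 to -0.15. For 6 CD8 T and NK cell genes it was -0.86 to -0.60 against -0.55 on both WT hCD2 arrays. In all, 1 of 13 shared myeloid, 2 of 17 monocyte and macrophage, 2 of 10 specific granule, 1 of 11 gelatinase granule (the decoy receptor Il1r2, -2.52 ± 0.41), 1 of 6 azurophil granule (the proteoglycan Srgn, -0.63 ± 0.11) and 0 of 5 granulocyte transcription factor genes were lower, and none of these lists had a gene that was higher. Over all genes, 1.55% were lower. The lists were chosen with earlier results of these data known, so nothing is read from these counts. Pglyrp1, Cybb, F13a1, Il1r2 and Srgn had also passed the test between wild-type Treg and Tconv cells, higher in Treg cells by 0.71 ± 0.11 (Srgn) to 3.70 ± 0.38 (Il1r2). In the effector Treg list, 11 of 12 genes were lower in R397W than in WT hCD2 cells, beside the same 1.55% of all genes, among them Klrg1 (-4.77 ± 0.42). The part of these changes in the lysozyme difference was not tested.

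The second set holds calprotectin and the specific granule proteins. On array 2 of the wild-type cells of A384T mice, S100a8 read 2.19, and on array 2 of the A384T cells it read 1.69. On arrays 1 and 3 it read -0.35 and -0.63 in the wild-type cells and -0.57 and -1.12 in the A384T cells. The arrays of number 2 thus stood above their own groups, and the groups overlapped with each other. R397W arrays were lowest with -1.71, -1.68 and -1.54, and the other 4 groups lay between -0.41 and 1.17.

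Its partner S100a9 read 1.87 and 1.27 on the arrays numbered 2, in wild-type and A384T cells of A384T mice. The other arrays of these mice lay between -1.17 and -0.34, and the R397W arrays read -1.60, -0.90 and -1.16. R397W arrays overlapped with A384T array 3, unlike for S100a8. S100a8 and S100a9 are neighbours on chromosome 3 with 0 protein-coding genes between them.

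Ngp, whose protein belongs to the cystatin and cathelicidin family, had the widest range of these 5 genes. It read -0.03, 2.79 and -1.19 on the wild-type arrays of A384T mice and -0.26, 2.25 and -1.81 on the A384T arrays. R397W arrays read -1.21, -1.36 and -1.17, higher than array 3 of the A384T cells. The SD was 2.05 within either group of A384T mice (n = 3) and 0.03 to 0.50 within the other groups.

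Camp read -0.07, 1.92 and -0.33 on the wild-type arrays of A384T mice and -0.20, 1.54 and -1.002 on the A384T arrays. Ltf read 0.19, 2.06 and -0.26, and -0.06, 1.47 and -0.48, in the same order. Number 2 was again the high array in both populations, and values of the other 5 groups ran from -0.50 to 0.70 for Camp and from -0.64 to 0.60 for Ltf. Averaged over the 5 genes, array 2 read 2.17 in wild-type and 1.64 in A384T cells, and the other 16 arrays lay between -1.12 and 0.78.

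The C/EBP family holds transcription factors needed for granulocyte maturation. Promoters of the 3 members of this set that hold a motif of this family are shown here as a description. Whether the motif bears on how the genes varied was not tested. The motif searched was TTGCNNAA on either strand (TTNNGCAA on the other) in the 250 bases before the start, and no other motif was searched. It was found in 4 of the 8 members with a RefSeq promoter window (Lyz1 at -209, S100a9 at -236, Ngp at -138 and -11, Ltf at -75), against 9.56% of 32851 windows of the same length. Lyz2, S100a8, Stfa3 and Camp windows held no match, and Mmp9 had no window. A match is a description of the letters and no site. Stretches are from RefSeq on GRCm38.p6, written 5′ to 3′ on the gene's strand with matches in capitals: chr9:110419668-110419807 (plus) for Ngp, chr9:111019192-111019291 (plus) for Ltf and chr3:90695872-90695971 (minus) for S100a9.
Ngp: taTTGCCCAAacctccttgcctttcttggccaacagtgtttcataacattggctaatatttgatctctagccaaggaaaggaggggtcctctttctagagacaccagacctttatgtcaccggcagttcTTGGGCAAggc
Ltf: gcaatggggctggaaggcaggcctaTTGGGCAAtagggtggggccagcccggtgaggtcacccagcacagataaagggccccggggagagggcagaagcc
S100a9: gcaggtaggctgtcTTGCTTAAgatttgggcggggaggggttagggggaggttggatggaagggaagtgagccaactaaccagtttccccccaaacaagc
Ngp, Camp and Ltf share chromosome 9 but are not adjacent, with 8 protein-coding genes between Ngp and Camp and 20 between Ngp and Ltf.

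The comparison of A384T cells with wild-type GFP+ cells of the same mice asks what differs between them in a shared host. The A384T cells were sorted by hCD2 and the wild-type cells by GFP, so allele and reporter cannot be told apart in it. None of the 5 genes of this set passed the test in the fit of all arrays, with differences of -0.56 ± 0.59 (S100a9) to -0.35 ± 0.53 (Ltf). Arrays of equal number in these 2 groups deviated together across all genes, and the numbers were therefore also used as a block. The difference of each pair is then what counts, and for S100a8 it was -0.21, -0.50 and -0.49, for S100a9 -0.24, -0.60 and -0.84, and for Ngp -0.24, -0.54 and -0.62. All 3 pairs ran the same way for these genes although the level of the pairs differed far more.

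With the replicate block, limma gave a fall of S100a9 (-0.56 ± 0.11, adjusted p = 0.0232), Ngp (-0.47 ± 0.09, adjusted p = 0.0239) and S100a8 (-0.40 ± 0.09, adjusted p = 0.0336). Camp (-0.39 ± 0.11) and Ltf (-0.35 ± 0.09) each had an adjusted p of 0.0765. Lyz1 (-0.51 ± 0.10, adjusted p = 0.0183) and Lyz2 (-0.50 ± 0.10, adjusted p = 0.0245) also fell, with pair differences of -0.75, -0.48 and -0.30 and of -0.74, -0.50 and -0.25. So 5 members were lower with the block and 0 without it, where 3.42% of all genes were lower with the block and 0.352% without it. The interaction in the fit of all arrays subtracts the difference between hCD2+ and GFP+ cells of wild-type mice. For these 5 members, Camp and Ltf it ran from -0.80 ± 0.54 (Lyz1) to -0.58 ± 0.84 (Ltf). Each had an adjusted p of 0.9999 by limma, and 0.0495% of all genes passed. No label states the pairing, which was taken from the data. The plot of arrays of equal number shows the pairs along the diagonal.

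**Figure D3:**
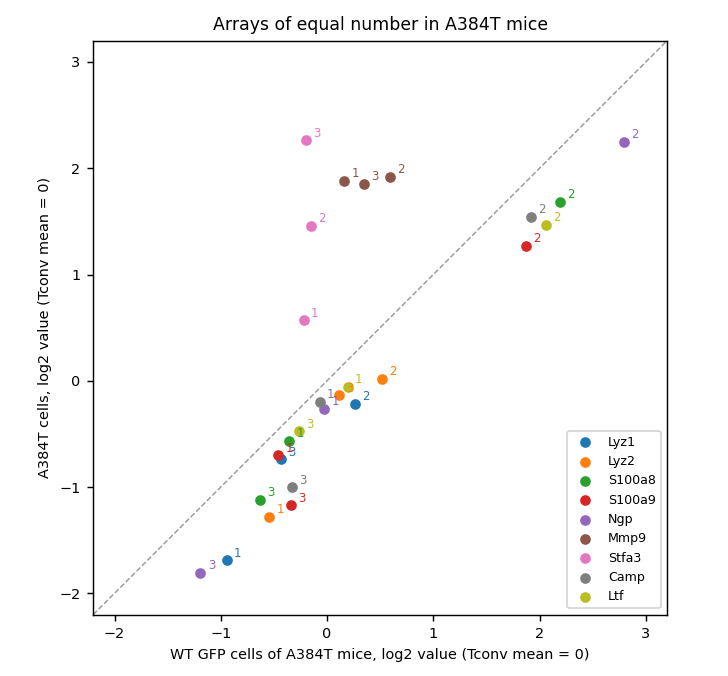
Log2 value (Tconv mean = 0) of each gene in A384T cells (vertical axis) against wild-type GFP+ cells of A384T mice (horizontal axis) on arrays of equal number, which is printed beside each point; the dashed line marks equal values. Points of Mmp9 and Stfa3 lie above the line, the other 21 points lie below it, and pairs numbered 2 of S100a8, S100a9, Ngp, Camp and Ltf lie at the upper right.

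Some markers outside the set were also high on the arrays numbered 2 of A384T mice. Of 10 specific granule genes, 2 were higher there than on every other array, and 1, Itgb2l, was lower (-0.44 and -0.20). The 2 higher genes, Lcn2, a binder of bacterial siderophores, and Chil3, a chitinase-like protein, read 2.65 and 2.66 on the wild-type array and 1.46 and 2.01 on the A384T array. Lcn2 lay between -0.46 and 0.41 on the other 16 arrays, and Chil3 between -1.65 and 1.48. Of 17 monocyte and macrophage genes, 5 were above every other array, among them Vcam1, an adhesion molecule of splenic macrophages and stroma, which read 2.99 and 2.70 on these arrays and at most 1.37 elsewhere. Of 6 azurophil granule genes, 1 was above every other array, Mpo (myeloperoxidase), with 0.72 and 0.96 there and at most 0.35 elsewhere. The cathepsin G gene Ctsg read -0.12 and -0.11 and Ms4a3 -0.46 and -0.31. Lists of other cells held such genes too: Cd22 (1 of 8 B cell genes) and Car1 (1 of 9 erythroid and platelet genes). Cd3e (1 of 8 T cell identity genes) and Csf2ra (1 of 13 shared myeloid genes) were also above every other array. The dendritic cell, B cell and T cell identity lists each had 1 gene below every other array (Xcr1, Pax5 and Cd28). The share of all genes above every other array was not counted, so nothing is read from these counts.

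Over whole lists the differences were smaller. The mean of 10 specific granule genes was 1.03 and 0.59 on these arrays and -0.43 to 0.51 on the others. The mean of 6 azurophil granule genes was 0.20 and 0.21, against -0.19 to 0.18. That of 17 monocyte and macrophage genes was 0.36 and 0.28, against -0.47 to 0.20. The mean of 13 shared myeloid genes was -0.19 and -0.31, against -0.73 to -0.66 on the other 4 arrays of these mice. That of 5 plasma cell genes was 0.06 and -0.07, against -0.82 to -0.53 on the same 4 arrays. For 6 CD8 T and NK cell genes it was -0.52 and -0.46, against -0.85 to -0.74. Over all 16 other arrays these means ran from -0.82 to 0.29, -0.87 to 0.03 and -0.86 to 0.07. Only the wild-type plasma cell mean of 0.06 thus lay outside. In contrast, the mean of 11 gelatinase granule and mature neutrophil genes was 0.45 and 0.43, within the -0.07 to 0.52 of all other arrays. That of 5 granulocyte transcription factor genes was 0.61 and 0.22, within -0.02 to 0.73. In either list 0 genes were above every other array. Of the first list, Csf3r, the receptor of granulocyte colony stimulating factor, read -0.10 and -0.12, and the chemokine receptor Cxcr2 read -0.42 and -0.22. The neutrophil elastase gene Elane read -0.07 and 0.01. The mean of 10 dendritic cell genes was -0.23 and -0.27, within the -0.38 to -0.18 of the other 4 arrays, and that of 8 T cell identity genes was 0.33 and 0.34, against 0.06 to 0.23. Whether admixed cells gave these values was not tested, and since levels are centred, no marker can be said to be at 0.

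Mmp9 and Stfa3 were highest in A384T cells. Mmp9 read 1.88, 1.92 and 1.85 on the A384T arrays, and 0.16, 0.59 and 0.35 on the wild-type arrays of the same mice. The groups did not overlap, and the A384T arrays were the 3 highest of the 18. A384T cells exceeded these wild-type cells by 1.52 ± 0.28 (adjusted p = 0.0222, limma), a ratio of 2.86. The second Mmp9 probe set, 1416298_at, read 1.28, 0.98 and 1.51 on the A384T arrays and gave a difference of 1.13 ± 0.18.

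Stfa3 read 0.57, 1.46 and 2.26 on the A384T arrays and -0.22, -0.15 and -0.20 on the wild-type arrays of the same mice. On the 12 arrays of the other 5 groups it lay between -0.36 and 0.23, so the A384T arrays stood above every other array while differing among themselves. The difference was 1.62 ± 0.28 (adjusted p = 0.0176, limma), a ratio of 3.07. With the replicate block, the adjusted p was 5.90e-05 for Mmp9 and 0.00580 for Stfa3.

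These were 2 of 9 members higher, where 0.17% of all genes were higher (1.81% with the block). No member was lower without the block. Of the granule and myeloid lists, F13a1 was lower (-1.15 ± 0.21), 1 of 17 monocyte and macrophage genes, and 0 of 6 azurophil, 10 specific, 11 gelatinase granule and 13 shared myeloid genes passed the test in either direction. Over all genes, 0.352% were lower without the block. Without any one of the 6 arrays, the Mmp9 difference kept its size (1.41 to 1.63) and lost the threshold (adjusted p of 0.0628 to 0.117), and that of Stfa3 did so without any one wild-type array or A384T array 2 (adjusted p of 0.0549 to 0.0916). The interaction, which subtracts the difference between hCD2+ and GFP+ cells of wild-type mice, was 1.18 ± 0.44 for Mmp9 and 1.31 ± 0.45 for Stfa3, both with an adjusted p of 0.9999 (0.0495% of all genes passed).

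Against WT hCD2 cells, which carry the same reporter, Mmp9 was 1.01 ± 0.31 (adjusted p = 0.336) and Stfa3 1.32 ± 0.32 (adjusted p = 0.147) higher in A384T cells. The difference was -1.69 ± 0.38 (adjusted p = 0.114) for Lyz1 and -1.32 ± 0.35 (adjusted p = 0.222) for Lyz2. None of the 9 members passed limma's test here, where 0.28% of all genes did. These 4 had an unadjusted p under 0.05, as did 8.07% of all genes. The median of the 9 members was -0.55, and without A384T array 2 it was -1.56. The WT hCD2 arrays of Mmp9 were wide apart, 0.24 and 1.51, and neither reached the lowest A384T array.

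The comparison of I363V with WT hCD2 cells gave no member past limma's test, where 0.912% of all genes passed. At an unadjusted p under 0.05 there was 1 member of 9 and 8.94% of all genes. The member was Mmp9, with -0.24, -0.17 and -0.69 on the I363V arrays and a difference of -1.24 ± 0.31 (adjusted p = 0.0931). The 5 genes of the second set differed by -0.84 ± 0.76 (S100a8) to -0.29 ± 0.59 (Ltf), and the 95% interval of S100a8 ran from -2.47 to 0.80. Lyz2 differed by -0.29 ± 0.35, with an interval of -1.04 to 0.46. Of the listed granule and monocyte genes, Cybb (-1.66 ± 0.30, adjusted p = 0.0156), Il1r2 (-2.13 ± 0.41, adjusted p = 0.0212) and Ccr2 (-1.73 ± 0.34, adjusted p = 0.0246) fell in I363V cells, as did 9 of 12 effector Treg genes.

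A direct comparison of A384T with I363V cells gave higher Mmp9 in A384T cells by 2.25 ± 0.28 (adjusted p = 0.000723, limma) and higher Stfa3 by 1.39 ± 0.28 (adjusted p = 0.0258). These were 2 of 9 members, where 0.885% of all genes were higher. The Stfa3 call was lost without any one array other than A384T array 1 (adjusted p of 0.0511 to 0.115), and the Mmp9 call was kept in each case. R397W cells differed from A384T cells by -2.56 ± 0.28 for Mmp9 and -1.40 ± 0.28 for Stfa3. Between R397W and I363V cells the difference of Stfa3 was -0.01 ± 0.28, with a 95% interval of -0.62 to 0.60.

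**Figure D4:**
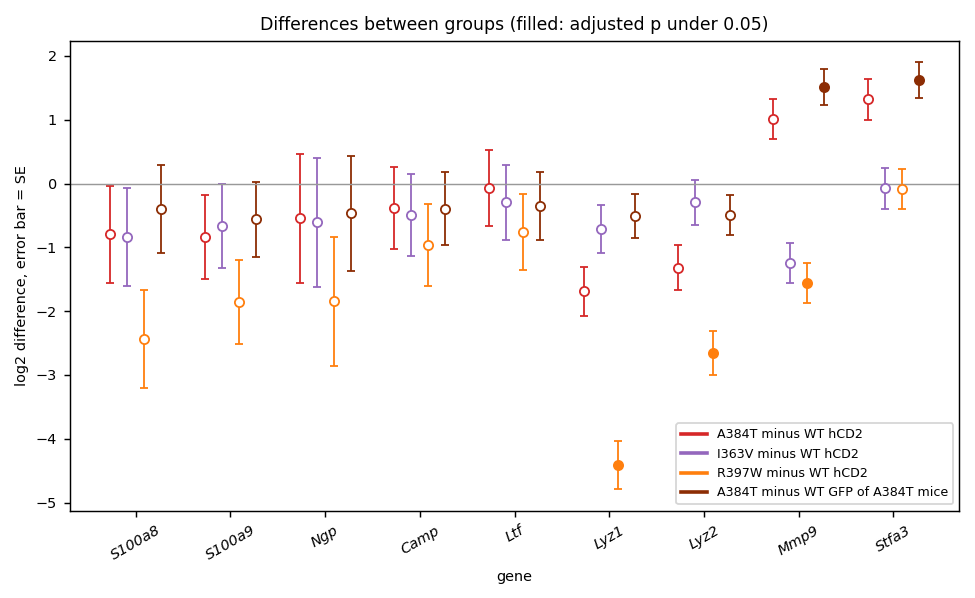
Log2 difference ± SE (vertical axis) of the 9 genes (horizontal axis) in 4 comparisons (colours), from the fit of all 18 arrays; filled points have an adjusted p under 0.05 and open points do not. Filled points are Lyz1, Lyz2 and Mmp9 in R397W against WT hCD2 cells, and Mmp9 and Stfa3 in A384T against wild-type cells of the same mice.

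Between wild-type populations no member differed past the threshold. Wild-type Treg cells lay above Tconv cells by 0.78 ± 0.33 for Lyz2 and 0.71 ± 0.30 for Mmp9 (adjusted p of 0.263 and 0.241, limma), and 5.84% of all genes passed this comparison. These 2 of 9 members had an unadjusted p under 0.05, as did 15.4% of all genes. In wild-type cells of A384T mice against wild-type GFP+ cells of wild-type mice, Lyz1 was -0.89 ± 0.38 (adjusted p = 0.9996), and 0% of all genes passed. It was the 1 member with an unadjusted p under 0.05, which 2.6% of all genes had. Between WT hCD2 and WT GFP cells, 0% of all genes passed, and no member but 2.54% of all genes had an unadjusted p under 0.05. Both A384T comparisons above share the A384T arrays, and the 3 mutants share the WT hCD2 arrays as control.

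Members were then compared from array to array, since RNA of an admixed myeloid cell would carry several of these transcripts at once. Over 18 arrays, the 10 pairs among S100a8, S100a9, Ngp, Camp and Ltf had a Pearson r of 0.86 to 0.98 (median 0.92) and a Spearman rho of 0.80 to 0.98. Deviations from group means gave an r of 0.93 to 0.98. Without the 2 arrays numbered 2 of A384T mice, r was 0.75 to 0.96 for values and 0.42 to 0.85 for deviations, so part of the relation rests on those arrays. The arrays share their labelling and normalization, and no p is given.

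Lyz1 and Lyz2 correlated with each other at an r of 0.95 (rho 0.92), at 0.94 over the 15 arrays without R397W and at 0.73 in deviations from group means. With the 5 granule and calprotectin genes the lysozymes had an r of 0.43 to 0.77. Without the arrays numbered 2 of A384T mice, r of the values was 0.59 to 0.90. Deviations from group means gave 0.39 to 0.72 with all arrays and -0.53 to 0.17 without the arrays numbered 2, so within groups the relation rests on these arrays. Mmp9 and Stfa3 had an r of 0.66 (rho 0.38) with each other, which fell to 0.03 over the 15 arrays without A384T. With the 5 genes of the second set Mmp9 and Stfa3 ran from -0.13 to 0.38.

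**Figure D5:**
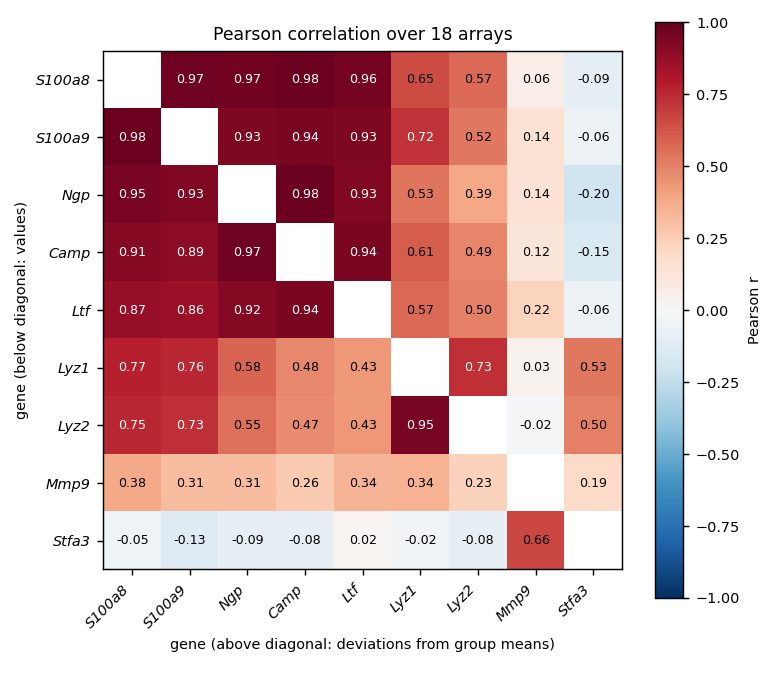
Pearson correlation between each pair of the 9 genes over 18 arrays (colour and number), of values below the diagonal and of deviations from group means above it. The block of S100a8, S100a9, Ngp, Camp and Ltf has values of 0.86 to 0.98, Lyz1 and Lyz2 share 0.95, and Mmp9 and Stfa3 share 0.66. The Lyz1 values are of an _x_at probe set that may also bind Lyz2 transcript.

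The mean of the 5 genes followed the mean of the specific granule list with an r of 0.84 over 18 arrays (0.69 without the arrays numbered 2) and that of the monocyte and macrophage list with 0.82 (0.68). It followed the plasma cell list with 0.71 (0.55), the shared myeloid list with 0.60 (0.60) and the effector Treg list with 0.50 (0.47). Other neutrophil lists gave 0.70 (0.53) for azurophil granule, 0.47 (0.35) for gelatinase granule and 0.44 (0.50) for granulocyte transcription factor genes. The dendritic cell list gave -0.10. The mean of the lysozymes gave 0.69 with the specific granule list, 0.67 with the monocyte and macrophage list and 0.54 with the effector Treg list. Lists of other cell types than neutrophils thus had positive correlations as well.

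Outside the members, the genes most like S100a8 over the 18 arrays by Pearson r were Chil3 (0.96), Erp44 (0.90) and Med24 (0.88). For Ngp they were Erp44 (0.90), Chil3 (0.90) and the siderophore binder Lcn2 (0.87). Chil3 and Lcn2 spanned 4.31 and 3.11 on the log2 scale, and Erp44 spanned 0.74. For Lyz1 they were Pabpc4 (0.83), 1700052I22Rik (0.82) and ND5 (0.82), and for Lyz2 Ly9 (0.87), the chemokine Ccl6 (0.80) and 1700052I22Rik (0.80). None of the 3 genes most like Lyz1 ranged over more than 1.37, against 4.90 for Lyz1 itself.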

How the data were processed

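RNA of 18 sorted samples in 7 groups was hybridised to 1-colour Affymetrix arrays with 45101 probe sets. Per the submitters' processing notes, the authors made the deposited values with RMA; its software and version are not given in the sources used here. The deposited values were taken as log2 values by the convention of RMA. They are centred per probe set: the 2 Tconv arrays summed to at most 1.0e-06 in size at every probe set, so the level and any filter on dim probe sets are lost and differences between groups are kept. Values ran from -5.80 to 7.59, and array medians from -0.036 to 0.038. Scanner files and scan batches were not used here. No array was left out.

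Chip annotation assigned 34945 probe sets to exactly 1 gene, 932 to several and 9160 to none, and 64 control probe sets were set aside. The single-gene probe sets gave 18193 genes, 9010 of them with several probe sets, of which the one with the largest variance was used. The members, lists and comparisons were chosen with earlier results of these data known. Named genes are the 9 members, the 3 genes most like each of Lyz1, Lyz2, S100a8 and Ngp by Pearson r, and genes of 14 marker lists that passed the test where a member did. Outside this rule, and after their values were seen, the text names markers on the arrays numbered 2 of A384T mice, Cybb, Il1r2 and Ccr2 in I363V cells, and Mettl23 and Fam91a1. Foxp3, Cd3e and Cd4 are named to describe the sorted cells. Listed genes without a single-gene probe set in the annotation used, such as Ly6g and Retnlg, were not analysed here.

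Group means were fitted with limma 3.58.1 in R 4.3.3 (11 residual and 3.3 prior degrees of freedom), with two-sided moderated tests. The script was tested on simulated data. In the 2 populations of A384T mice, deviations from the group means correlated over genes at 0.69, 0.65 and 0.58 between arrays of the same number (0.69, 0.65 and 0.57 without the members), and at -0.45 to -0.16 between arrays of different numbers. The numbers were therefore used as a replicate block in a second limma fit of these 2 groups. Comparisons between mutants, and the omission of both arrays numbered 2 of A384T mice, were added after seeing the data. Alternatives were the mean of a gene's probe sets, arrays shifted to a median of 0, a fit of the compared groups alone, robust moderation, array weights, and each array left out. Promoters were from RefSeq on GRCm38.p6. Software for tables was pandas 2.3.3 and numpy 2.4.6 in Python 3.11.15, and plots used matplotlib 3.10.9.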

Additional observations from a re-analysis of the deposited data

Results flagged for a closer look

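The mutants were compared with each other directly in the limma fit of all arrays, and differences in 4 members lay past its threshold. Mmp9 was 2.25 and Stfa3 1.39 higher on the log2 scale in A384T than in I363V cells. Between R397W and A384T cells the differences were -2.72 for Lyz1, -1.34 for Lyz2, -2.56 for Mmp9 and -1.40 for Stfa3. Between R397W and I363V cells they were -3.70 for Lyz1 and -2.36 for Lyz2. The R397W arrays were in view when the genes were listed, so these values describe the arrays. No group held 4 or more arrays, so the criterion for a single array far from its own group was not applied, also not to the arrays numbered 2 of A384T mice.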

How the results depend on the processing

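No result changed direction under a planned or added alternative while past its threshold. The calls of Lyz1 in R397W cells and of Mmp9 in A384T against I363V and R397W cells were kept in all 10 to 12 alternatives run for each. None of these took the Lyz1 probe set 1450822_at alone, which gave -0.26 ± 0.11 for R397W minus WT hCD2 cells. The R397W arrays were in view when the genes were listed, so a kept call there is no independent evidence. In a fit of the compared groups alone, where fewer arrays set the spread, Stfa3 lost its call in A384T against wild-type cells of the same mice (adjusted p = 0.120, limma), against I363V cells (0.241) and against R397W cells, as did Mmp9 in R397W against WT hCD2 cells and Lyz2 in R397W against A384T cells. With array weights, Lyz2 and Stfa3 lost the call in R397W against A384T cells. The median difference over the members moved from -0.55 to -1.56 in A384T against WT hCD2 cells without A384T array 2, and likewise without both arrays numbered 2 of A384T mice, and ran from -1.56 to 0.17 over single arrays left out. In A384T against I363V cells it moved from 0.06 to -0.80 in these settings, with a range of -0.80 to 0.61. In A384T against wild-type cells of the same mice it ran from -0.93 to 0.34 over single arrays left out. There it was -0.40 with and without the replicate block. A block cannot change a difference between groups that hold the same numbers, so this equality says nothing about stability. In a replicate block of WT GFP and Tconv arrays the median was 0.52. That fit left out the WT hCD2 arrays, which the main value of 0.60 includes. The other comparisons share fewer than 2 numbers or no pairing. The median correlation between members was 0.51 by Pearson, 0.68 by Spearman, 0.63 without both arrays numbered 2 and 0.46 to 0.57 over single arrays left out. Counts of genes past the threshold moved by over 1.5 times. They were 51 and 10 to 64 for A384T, 166 and 28 to 208 for I363V, and 412 and 32 to 440 for R397W against WT hCD2 cells. They were 95 and 18 to 952 for A384T against wild-type cells of the same mice, the highest with the block. They were 207 and 108 to 355 for A384T against I363V, 569 and 235 to 647 for R397W against A384T, 15 and 1 to 57 for R397W against I363V, 0 and 0 to 1 for wild-type cells of A384T against those of wild-type mice, and 1063 and 595 to 1138 for wild-type Treg against Tconv cells. Background correction and a filter on dim probe sets could not be varied on centred values. Groups of 2 or 3 arrays limit every value.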
